A study of Rattus norvegicus with 36 samples.

Results

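Extraocular muscle (EOM), the muscle group that moves the eyeball, was compared between 2 late postnatal ages of the rat, day 28 and day 45. The comparison took the 3 EOM arrays titled day 45 and the 3 titled day 28, which are 6 of the 36 arrays of the series. The other arrays are EOM at days 0, 7, 14 and 21 and a leg sample, gastrocnemius with soleus, at all 6 ages, again with 3 arrays each. Total RNA was hybridised to Affymetrix RG-U34A arrays, on which a set of short probes reads 1 transcript. The labels name no strain, sex, genotype or treatment, and no dissection protocol. They do not state that the arrays of a group are different animals, so a p-value here measures the spread between arrays, which may be technical. The value of a probe set is its intensity, a brightness on a linear scale already scaled by the authors. Intensities were floored at 100 and turned to log2, and a positive difference means a higher value at day 45. Each log2 difference is given with the standard error of a limma fit whose variance is pooled over all 12 groups. Where the arrays of a compared group differ more than those of the other groups, that standard error understates their spread.

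EOM matures differently from limb muscle. Limb fibres replace embryonic and neonatal myosin heavy chains with adult fast and slow forms, whereas EOM keeps the developmental forms in part of its fibres and adds a heavy chain of its own, encoded by Myh13. It also keeps the fetal gamma subunit of the acetylcholine receptor beside the adult epsilon subunit. By weaning these muscles serve an open eye with near-adult movements, and the orbit around them holds connective tissue pulleys with smooth muscle, fat, vessels, nerves, and the lacrimal and Harderian glands.

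The EOM label held against its markers. Myh13 read 23609.7, 18655.0 and 26747.4 on the day 28 arrays and 16469.3, 17500.7 and 35126.2 on the day 45 arrays. On the 6 leg arrays of these ages it lay between 103.7 and 1146.7, far below every EOM array. The day 45 EOM arrays were the least alike of the compared pair of groups: they correlated at 0.879 to 0.916 with each other across probe sets, against 0.929 to 0.944 at day 28. On day 45 arrays 1, 2 and 3, in that order, 9.8%, 15.7% and 18.1% of probe sets lay at least 2-fold from the mean of the other two. At day 28 the shares were 11.3%, 7.1% and 10%. Array 2 of day 45 was the brightest at its median (657.8, with 9.85% of values at the floor), and array 3 had the highest single value, 49844.7. Some bright probe sets read near 0: 12 of those tested exceeded 10000 on at least 1 array and read under 5 on at least 1 of the 6 EOM arrays. Ckm, the muscle creatine kinase, is one, at 0.2, 0.2 and 0.1 at day 28 and 606.6, 727.4 and 23834.7 at day 45, so no fold is given for it.

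Few probe sets passed the test in EOM over this interval. Of 6783 tested, 13 (0.192%) had a limma adjusted p under 0.05, 8 higher and 5 lower at day 45, and all 13 differed by at least 2-fold. At an unadjusted p under 0.05 there were 680, of which 411 were higher and 269 lower. The median difference over all probe sets was 0.08, and the median 95% interval reached 0.7 log2 units to either side of an estimate. That interval is not adjusted for the number of tests, and passing the adjusted test took more. Among the 13, the largest unadjusted limma p was 8.93e-05, and the difference smallest in size was -1.13. A low count therefore does not show that expression was stable. In the leg sample 133 of the same probe sets (1.96%) passed between the same ages, 64 higher and 69 lower. The count for EOM rests on single arrays. It was 3 without day 28 array 1, 2 without day 28 array 2, 7 without day 45 array 2 and 152 without day 45 array 3. The leg count was 67 without its day 45 array 1 and 59 without its day 45 array 2. When arrays were instead scaled to a common median, the higher calls in EOM were 10 of 33, and after quantile normalization 12 of 30; in leg they were 23 of 113 and 40 of 131.

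Ces1d, a carboxylesterase that cleaves esters and stored lipid, had the smallest p among probe sets with 1 gene symbol. Its intensities were 224.8, 183.3 and 369.1 at day 28 and 1529.0, 2626.8 and 897.5 at day 45. Every day 45 array lay above every day 28 array. It rose 6.19-fold (log2 2.63 ± 0.39, adjusted p = 0.000615). A second probe set, assigned to Ces1d and to its neighbour Ces1dl1 together, rose by 2.46 ± 0.36 with the same adjusted p and the smallest p of all. Ces1d also rose in leg, by 1.69 (adjusted p = 0.0181), and the changes in the 2 muscles were not told apart (difference 0.94 ± 0.55, adjusted p = 0.844, 95% interval -0.18 to 2.07). In EOM its mean lay at the floor at days 0, 7 and 14 and at 122 at day 21. Leaving out any single array kept the call. Whether more cells that express a gene or more RNA in each cell gave such a rise cannot be told apart in whole-muscle RNA.

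Cd24, a small surface glycoprotein of epithelial, immune and immature cells, read 687.5, 1324.2 and 945.5 at day 28 and 5512.7, 5483.8 and 1265.5 at day 45. Arrays 1 and 2 of day 45 were high, while array 3 lay within the day 28 range. The rise was 3.54-fold (1.82 ± 0.38, adjusted p = 0.0386). A second Cd24 probe set rose by 2.33 (adjusted p = 0.0339), and the third had a difference of 2.44 (adjusted p = 0.066). The leg arrays showed a rise of the same size, 1.84 (adjusted p = 0.00867), from 922.2, 1235.1 and 1626.0 to 3851.3, 5226.4 and 4192.4. The difference between the muscles was -0.01 (95% interval -1.12 to 1.09). Over age the geometric mean in EOM went from 7900 at day 0 through 759 at day 14 to 537 at day 21, then 951 and 3370 at days 28 and 45. In EOM the call was lost without any one of day 28 arrays 1, 2 or 3 (adjusted p = 0.248, 0.0588 and 0.0825) or day 45 arrays 1 or 2 (0.242 and 0.246).

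Cnn1, calponin, an actin-binding protein of smooth muscle, read 170.7, 424.7 and 320.0 at day 28 and 798.9, 1290.0 and 2009.8 at day 45. All 3 day 45 arrays were higher, with array 3 the highest. It rose 4.47-fold (2.16 ± 0.48, adjusted p = 0.0466). Day 28 was the lowest of the EOM ages for Cnn1, with a geometric mean of 285 against 905 at day 0 and 1270 at day 45. In leg the difference was 0.02 (adjusted p = 0.995). The difference between the changes was 2.14, with a 95% interval of 0.76 to 3.51 and an adjusted p of 0.331. The call was close to the threshold: with a floor of 50 its adjusted p was 0.0501 and without the filter on dim probe sets 0.0584. Of the 6 fits that left out 1 array, it was lost in 5, with adjusted p from 0.0576 to 0.283, and kept without day 45 array 1.

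Mpp2, a membrane-associated scaffold protein of the guanylate kinase family, read 434.2, 555.4 and 347.7 at day 28 and 981.4, 1456.7 and 944.8 at day 45. The groups did not overlap, and it rose 2.53-fold (1.34 ± 0.28, adjusted p = 0.0339). Its leg difference was -0.27 (adjusted p = 0.694), and the difference between the changes, 1.6 with a 95% interval of 0.81 to 2.4, had an adjusted p of 0.153. The EOM call was lost without day 28 arrays 1, 2 or 3 (adjusted p = 0.164, 0.0588 and 0.103) and without day 45 array 2 (0.186).

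Col2a1, the main collagen of cartilage, fell. It read 525.7, 941.6 and 543.8 at day 28 and 104.9, 202.8 and 174.0 at day 45, the first close to the floor. The fall was 4.17-fold (-2.06 ± 0.41, adjusted p = 0.0338). The leg sample fell by about as much, from 393.4, 1076.3 and 354.1 to 178.2, 144.3 and 93.3 (-1.96, adjusted p = 0.00995), and the difference between the changes was -0.11 (95% interval -1.3 to 1.09). In both muscles Col2a1 stood highest at day 0 and lowest at day 45, at 2420 and 155 in EOM. Its call was lost without day 28 arrays 1 or 2 (adjusted p = 0.0727 and 0.166), without day 45 array 1 (0.15) and with a floor of 200 (0.0637).

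Adgrl1, latrophilin, an adhesion receptor of synapses, read 2287.6, 1362.4 and 1703.6 at day 28 and 794.9, 569.2 and 1035.5 at day 45. It fell 2.25-fold (-1.17 ± 0.25, adjusted p = 0.0456), with no overlap of the arrays. The leg difference was 0.22 (adjusted p = 0.738), and the difference between the changes was -1.39 (95% interval -2.12 to -0.65, adjusted p = 0.187). Its adjusted p was 0.0518 without a trended prior. Among the fits that left out 1 array, the call held without day 45 array 3, and the adjusted p of the others ran from 0.0588 to 0.303.

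**Figure D1:**
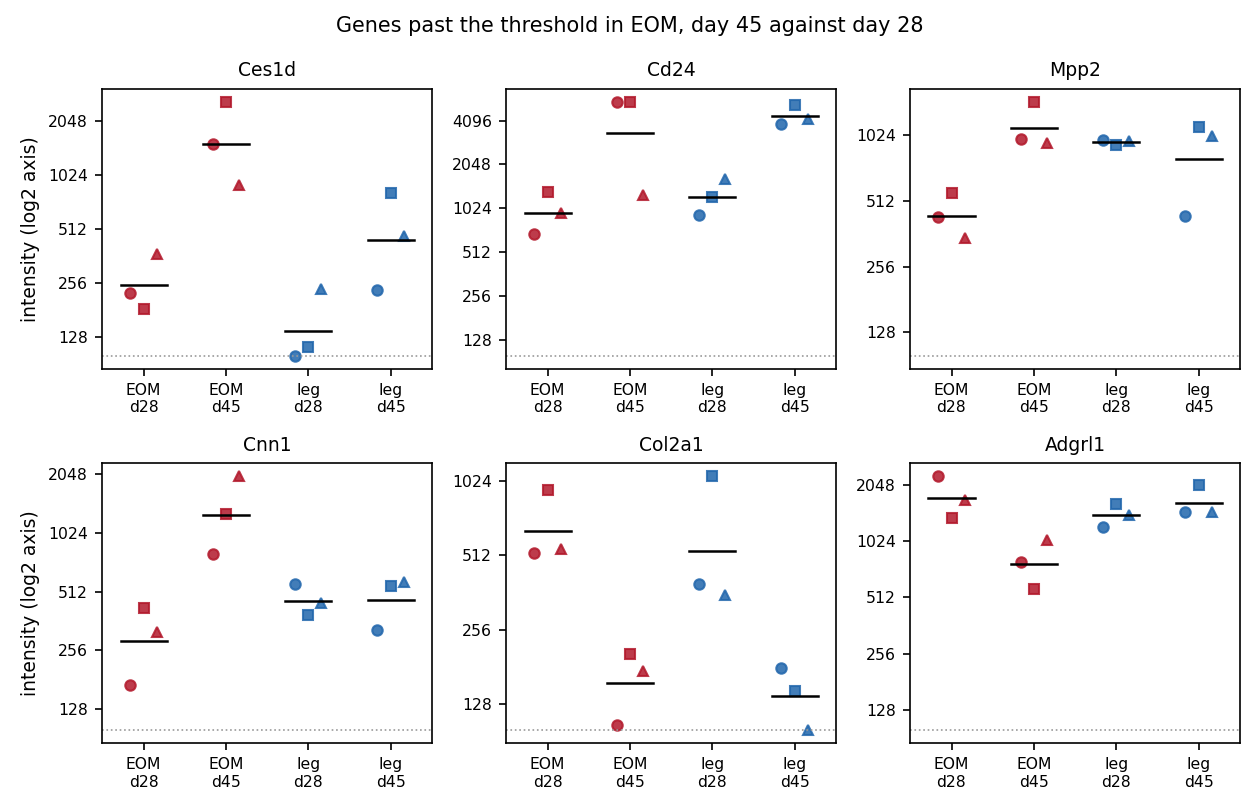
Intensity on a log2 axis of the 6 genes past the threshold in EOM, in the 3 arrays of each group (circle, square and triangle for arrays 1, 2 and 3; black bars, geometric means; dotted line, floor of 100). Ces1d, Mpp2 and Cnn1 were higher on all 3 EOM day 45 arrays, Cd24 on arrays 1 and 2, and Col2a1 and Adgrl1 were lower on all 3.

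The remaining probe sets past the threshold are 1 with no gene symbol and 4 of genes whose brightest probe set did not pass, which are named here after their values were seen. Alox15, a lipoxygenase of arachidonic acid, read 2873.0, 4144.5 and 2083.4 at day 28 and 1116.4, 366.9 and 136.7 at day 45 (-2.93 ± 0.53, adjusted p = 0.0103). In leg the same probe set fell by 2.95 on the log2 scale (adjusted p = 0.00215). A brighter Alox15 probe set had differences of -1.31 in EOM (adjusted p = 0.247) and -0.76 in leg (0.398). Rab3b, a small GTPase of vesicle release, read 196.6, 63.8 and 169.7 and then 558.7, 460.1 and 386.3. That rise of at least 3.1-fold (1.63 ± 0.33, adjusted p = 0.0338) met a difference of 0.74 on its other probe set (adjusted p = 0.335). One of 5 probe sets of Ndufa4l2, a mitochondrial protein induced by hypoxia, fell by 2.45 on the log2 scale (adjusted p = 0.0437), and the other 4 had differences of -0.36 to -0.64. One of 4 probe sets of Pfkfb1, a regulator of glycolysis, rose by 2.17 (adjusted p = 0.0466) from 70.6, 109.6 and 52.4 to 472.6, 601.4 and 354.9, and the others had differences of 0.22 to 0.77. One probe set unnamed here fell by 1.13 on the log2 scale (adjusted p = 0.0386). The calls for Alox15 and the unnamed probe set were lost without day 28 array 1 (adjusted p = 0.0546 and 0.248) or array 2 (0.0647 and 0.175), and the latter without day 45 array 1 (0.12). That for Rab3b was lost without day 28 array 2 or day 45 arrays 1 or 2, that for Ndufa4l2 without any day 28 array or day 45 array 2, and that for Pfkfb1 without any array but day 45 array 3. Those adjusted p-values ran from 0.0507 to 0.249.

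**Figure D2:**
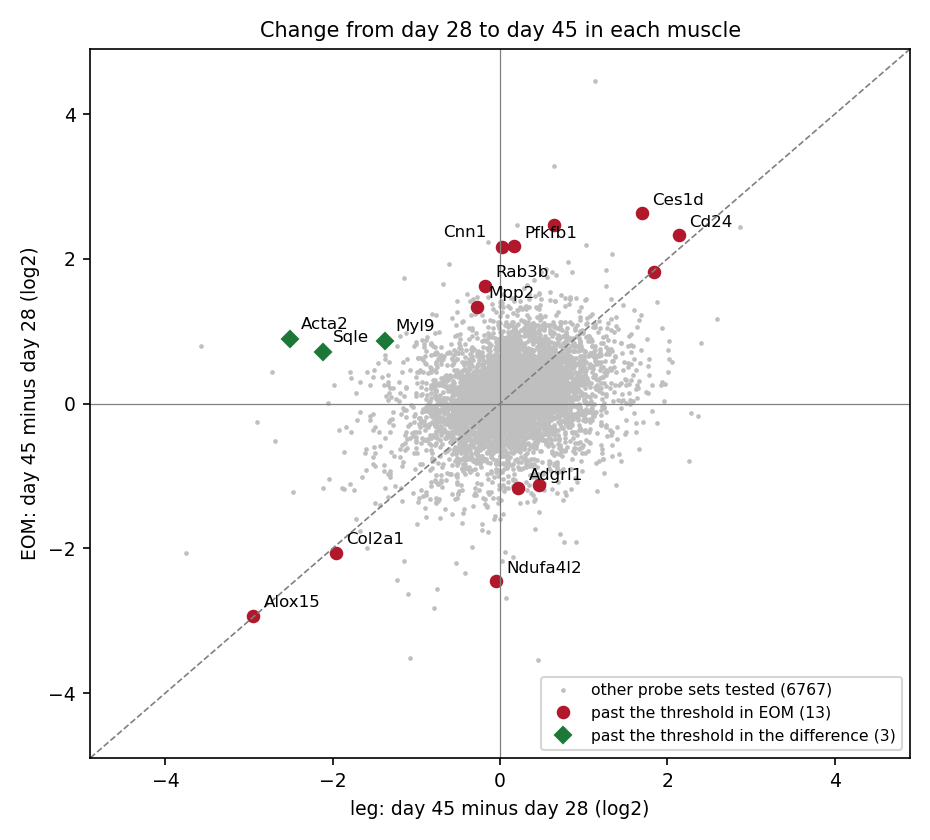
Day 45 minus day 28 on the log2 scale in EOM (vertical) against leg (horizontal) for the 6783 probe sets tested; the dashed line marks equal change, and labels give genes with 1 symbol. Col2a1, Alox15 and Cd24 lie near the line, while Acta2, Sqle and Myl9 lie above 0 in EOM and below 0 in leg.

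The rule for named genes filled the list with the next smallest p-values. Among the higher ones, Pip, a protein secreted by lacrimal and salivary glands, read 148.4, 118.1 and 219.5 at day 28 and 568.2, 11987.2 and 521.7 at day 45. All 3 day 45 arrays were above day 28 and array 2 was by far the highest, for a difference of 3.28 ± 0.75 (adjusted p = 0.051). The SD of its day 45 arrays was 2.58, against 0.45 at day 28, which the pooled standard error does not reflect. By limma Pip passed without day 45 array 3 (4.06, adjusted p = 0.00386) or array 1 (4.0, 0.0277). Without array 2 the difference was 1.8 (adjusted p = 0.373). Hsd17b12, an enzyme of long-chain fatty acid elongation, had a difference of 1.65 (adjusted p = 0.1), the receptor phosphatase Ptpre one of 1.95 (0.103) and the aldehyde dehydrogenase Aldh3a1, abundant in cornea, one of 1.05 (0.107). Among the lower ones, Cdkn1a, the cell cycle inhibitor p21, read 4127.3, 4139.7 and 1174.4 and then 199.7, 693.9 and 702.1, with no overlap. Its difference was -2.56 ± 0.58 (adjusted p = 0.051), and a second probe set had -2.18 (0.134). Dpy19l1, of a family of glycosyltransferases, had a difference of -1.99 ± 0.45 (adjusted p = 0.0502), and its day 45 arrays, 220.0, 243.4 and 298.4, lay well under 1184.6, 928.0 and 915.1 at day 28. Slc5a5, the iodide transporter, had -2.18 (0.1), the bradykinin receptor Bdkrb2 -1.16 (0.0893), and the clathrin adaptor subunit Ap2s1 -0.82 (0.0777).

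Extracellular matrix genes were mostly lower at day 45, and Col2a1 alone passed the test, beside 4 higher and 2 lower of all 3939 genes. Of 40 matrix genes tested, 14 were lower at an unadjusted p under 0.05 and 0 were higher, against 139 lower and 236 higher of all 3939 genes. In 10 of the 40 all 3 day 45 arrays lay below all 3 day 28 arrays, beside 4.62% of all genes, and in 1 all lay above, beside 7.36%. The list's median difference was -0.13, against 0.09 over all genes, and -0.2 against 0.2 without day 45 array 3. Mmp14, a membrane metalloproteinase, read 10998.7, 10078.7 and 6792.5 and then 3648.9, 4915.6 and 4418.5 (-1.08 ± 0.31, adjusted p = 0.156). Elastin, Eln, read 16451.9, 13667.6 and 9090.9 and then 7973.4, 7826.1 and 6199.1 (-0.8 ± 0.27, adjusted p = 0.269). For both genes the 2 ages did not overlap. Pcolce, which enhances procollagen processing, read 3812.7, 4299.3 and 3623.7 and then 1423.8, 1578.1 and 3436.5 (-0.98, adjusted p = 0.0713). Pcolce passed without day 45 array 3, the array closest to day 28 (-1.38, adjusted p = 0.000121). The cross-linking enzymes Loxl1 and Lox had differences of -0.89 and -0.69, and the fibrillar collagens Col5a1, Col5a2, Col1a2 and Col1a1 had -0.83, -0.54, -0.49 and -0.23. Col3a1 was at -0.08 and the small proteoglycan Dcn at 0.44, so the direction was not shared by the whole list. In leg the same list had a median of -0.22, against 0.12 over all genes. There 2 of the 40 members were lower past the threshold, beside 37 of all 3939 genes.

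The change over the interval was next set against that in leg. It differed past the threshold for 3 probe sets (0.0442% of those tested), and 2 of them read contractile genes of smooth muscle. Acta2, smooth muscle actin, read 7325.0, 6976.7 and 4356.4 in EOM at day 28 and 11476.4, 13605.2 and 9101.5 at day 45, a difference of 0.89 (adjusted p = 0.416) with no overlap. In leg it went from 23358.2, 11628.8 and 20573.1 to 3340.7, 1893.3 and 4810.0, a change of -2.51 on the log2 scale (adjusted p = 0.000344). The difference between the changes was 3.4 ± 0.53 (adjusted p = 0.00143, 95% interval 2.32 to 4.48). The other Acta2 probe sets gave 4.36 (adjusted p = 0.067) and 0.99 (0.65), the last from the brightest.

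Myl9, the regulatory light chain of smooth muscle myosin, read 1305.0, 2082.2 and 2300.3 in EOM at day 28 and 2330.3, 3420.2 and 4736.6 at day 45 (0.86, adjusted p = 0.134). The leg values fell from 5249.0, 4562.5 and 4006.2 to 1527.1, 1952.6 and 1807.6 (-1.38, adjusted p = 0.00146). The difference between the changes was 2.25 ± 0.33 (adjusted p = 0.00117, 95% interval 1.57 to 2.93). Its brighter probe set gave 2.88 with an adjusted p of 0.273. The calls for Acta2 and Myl9 held without each of the 12 arrays in turn.

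Sqle, squalene epoxidase of cholesterol synthesis, was the third. It read 149.3, 556.0 and 468.5 and then 559.4, 629.0 and 479.7 in EOM, where the ages overlapped (0.71, adjusted p = 0.526). In leg it fell from 611.1, 481.8 and 373.4 to 54.4, 55.6 and 133.1, with 2 arrays at the floor. The difference between the changes was 2.83 ± 0.53 (adjusted p = 0.0212). That call was lost without leg arrays 1 of either age, EOM day 28 array 1, or EOM day 45 arrays 1 or 2, with adjusted p from 0.0542 to 0.0892. It was also lost with a floor of 200 (1.83, adjusted p = 0.0876) and after quantile normalization (2.87, adjusted p = 0.0511). The number of calls also moved with single arrays. It was 15 without EOM day 45 array 3, 13 without leg day 45 array 2, 7 without EOM day 28 array 3, 6 without leg day 28 array 2, and 5 without leg day 28 array 1 or array 3.

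The next smallest p-values of the difference did not pass. Slc16a6, a monocarboxylate transporter, had a difference between the changes of 1.39 (adjusted p = 0.152), with 0.05 in EOM and a fall in leg (-1.34, adjusted p = 0.00146). Tcap, the titin cap of the sarcomere, had -1.25 (adjusted p = 0.153), with -0.39 in EOM and a rise in leg (0.86, adjusted p = 0.0252). Slc2a4, the insulin-responsive glucose transporter, had -1.13 (adjusted p = 0.153), with -0.15 in EOM and a rise in leg (0.98, adjusted p = 0.00657). The brightest probe set assigned to Crp, C-reactive protein, had -1.64 (adjusted p = 0.152), with -0.96 in EOM and 0.68 in leg, neither past the threshold. A second had -0.8 in EOM and 0.58 in leg. The third had 0.12 and 0.06. The first and second moved like the unnamed probe set past the threshold in EOM, which had -1.13 in EOM and 0.47 in leg. Whether they read the Crp transcript was not tested, so no change of Crp is read from them.

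**Figure D3:**
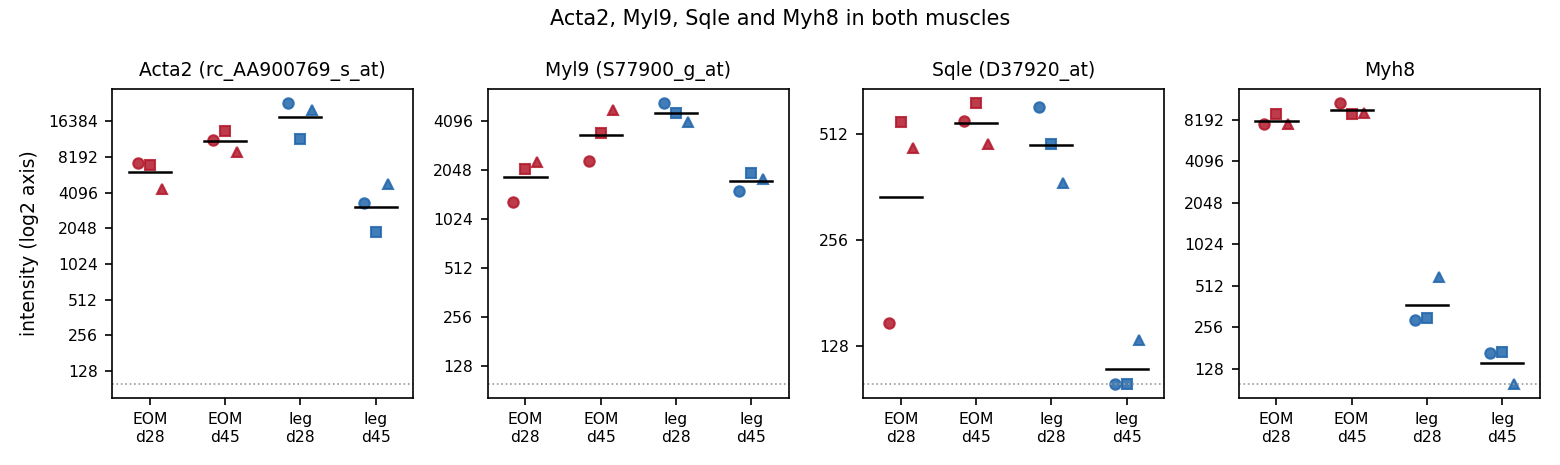
Intensity on a log2 axis of Acta2, Myl9 and Sqle, the genes whose change differed between the muscles, and of the neonatal myosin Myh8 (symbols as arrays 1, 2 and 3; black bars, geometric means; dotted line, floor). The leg values of the first 3 fall at day 45 while the EOM values do not.

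Of 15 genes on the list of endothelial and smooth muscle markers, Cnn1 passed in EOM, beside 4 higher and 2 lower of all 3939 genes. In 5 genes all 3 day 45 arrays were higher, beside 7.36% of all genes, and in 1 all were lower, beside 4.62%. The transgelin gene Tagln read 991.0, 1445.7 and 1724.0 and then 1946.3, 2379.4 and 4064.7 (0.98, adjusted p = 0.156). The heavy chain Myh11 read 930.2, 917.5 and 1154.3 and then 1438.2, 2456.6 and 1860.5 (0.91, adjusted p = 0.449), and the actin Actg2 had a difference of 0.88. For both Tagln and Myh11 the ages did not overlap. The endothelial members Pecam1, Kdr, Vwf and Nos3 had differences of -0.56, 0.34, -0.08 and 0.26, and Pdgfrb, a receptor of pericytes, had -1.18 (adjusted p = 0.43). The summed intensity of the list was 42056 to 47965 at day 28 and 43815, 46085 and 58826 at day 45, so array 3 stood highest. The list median was 0.19 in EOM and 0.01 in leg, against 0.09 and 0.12 over all genes.

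The myosin heavy chains and receptor subunits were followed whatever their values, and in EOM none passed the limma test or any of the alternatives run. Myh8, the neonatal heavy chain, read 7606.1, 8975.0 and 7687.3 at day 28 and 10816.5, 9016.8 and 9137.3 at day 45 (0.25, adjusted p = 0.813, 95% interval -0.33 to 0.84), with all day 45 arrays above day 28. In leg the same probe set fell from 291.4, 297.8 and 597.4 to 167.4, 170.4 and 88.7 (-1.39, adjusted p = 0.00739). The difference between the changes was 1.65 ± 0.4 (95% interval 0.82 to 2.47), which did not pass (adjusted p = 0.153). Myh3, the embryonic heavy chain, showed -0.23 in EOM (95% interval -1.03 to 0.56) on its brightest probe set, and in leg it fell by 1.71 on the log2 scale (adjusted p = 0.0164), with an adjusted p of 0.526 for the difference. Another Myh3 probe set also fell in leg (-1.67, adjusted p = 0.00657). The others had -0.25, -0.42 and -0.48 in leg, none past the threshold. In EOM the other Myh3 probe sets ran from -0.88 to 0.79, none past the threshold. The probe set at 0.79 (standard error 1.63) read 1880.0, 2.5 and 14056.9 and then 606.6, 699.4 and 32504.2, with a value near 0 as for Ckm. In leg its mean log2 rose from 7.72 at day 0 to 13.52 at day 45, where the brightest Myh3 probe set fell from 13.6 to 10.55. Whether it reads Myh3 was not tested. Over age, Myh8 in EOM ran from 10100 at day 0 through 6410 at day 21 to 9620 at day 45. In leg it went from 20700 at day 0 to 142 at day 45.

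Myh13 reached 19400 in EOM at day 14, 22800 at day 28 and 21600 at day 45. Its difference between day 45 and day 28 was -0.07, with a wide interval of -1.29 to 1.15. The adult fast chains Myh2, Myh4 and Myh1 had differences of -0.07, -0.38 and -0.62, and the slow chain Myh7 had 0.0 (95% interval -0.44 to 0.44). The brightest probe set assigned to Myh6, a chain of heart and of some EOM and jaw fibres, read 5337.7, 4133.0 and 6479.6 and then 10225.3, 6600.7 and 10330.6. That difference of 0.76 did not pass (adjusted p = 0.424), and the other Myh6 probe sets had -0.16 and -0.7. On the leg arrays of these ages the brightest one read 18201.1 to 27818.6, above every EOM array. Whether it reads Myh6 alone was not tested. Myh2, Myh3, Myh4, Myh7 and Myh13 lay in the brightest 5% of all values (above 9323.6), where a probe set may understate a change.

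**Figure D4:**
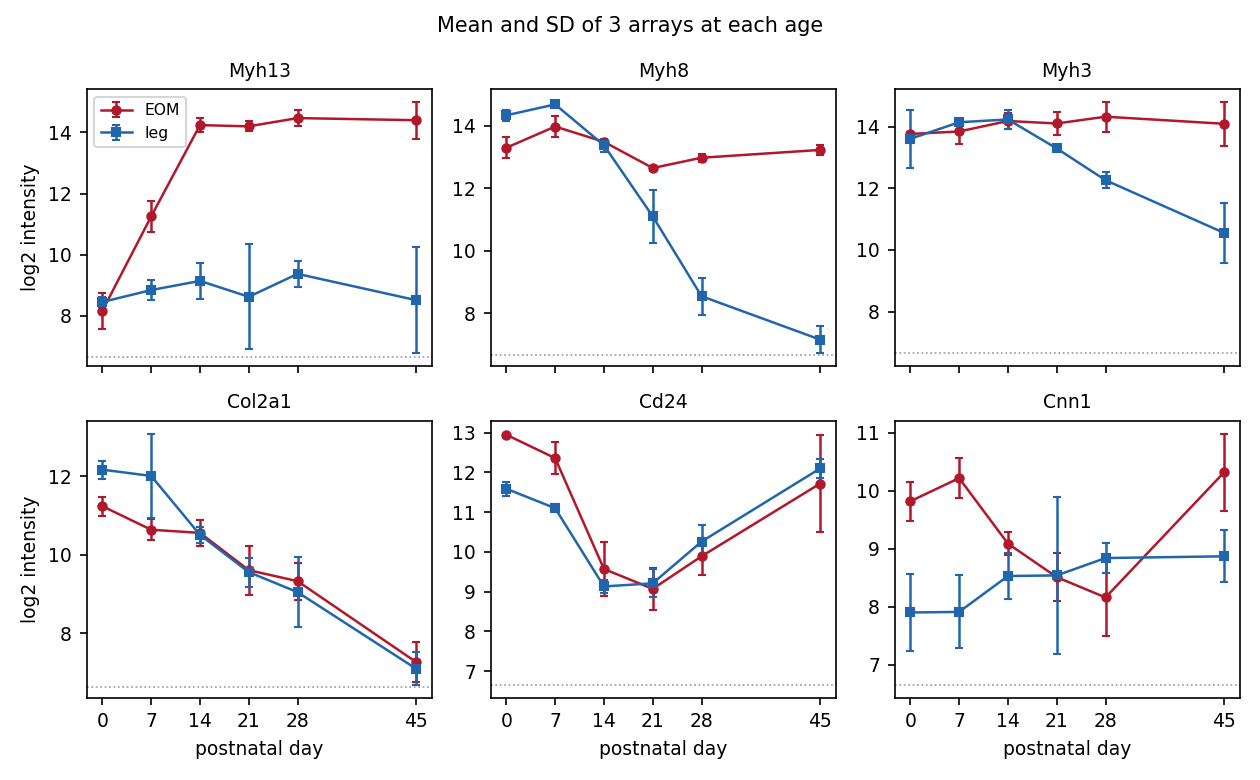
Mean log2 intensity with the SD of 3 arrays at 6 postnatal ages in EOM (circles) and leg (squares) for 3 myosin heavy chains and for Col2a1, Cd24 and Cnn1; the dotted line is the floor. From day 28 to day 45 the EOM means differ by -0.07 for Myh13, 0.25 for Myh8 and -0.23 for Myh3, and Col2a1 falls and Cd24 rises in both muscles.

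At the neuromuscular junction no acetylcholine receptor subunit passed the test. Chrne, the adult epsilon subunit, read 3571.0, 4825.6 and 5012.3 and then 3546.0, 2644.4 and 3403.0 (-0.48, adjusted p = 0.508, 95% interval -0.97 to 0.01), with every day 45 array below every day 28 array. The fetal gamma subunit Chrng had a difference of 0.11 (95% interval -0.24 to 0.47), Chrna1 0.05 and Chrnd -0.18. Of 17 junction genes 0 passed by limma and 1 was higher at an unadjusted p under 0.05, the dystrophin relative Utrn (0.46, adjusted p = 0.347). Of all 3939 genes, 236 were higher at that unadjusted p, and 4 were higher and 2 lower past the adjusted threshold. Among 13 myogenic factors and members of the myostatin axis, Myog, myogenin, read 1178.0, 1533.0 and 1444.4 and then 976.5, 253.6 and 862.2. Its difference was -1.2 ± 0.31 (adjusted p = 0.107), and in 4 of the 13 all day 45 arrays were lower, beside 4.62% of all genes. Igf2, a fetal growth factor, read 16087.0, 12925.1 and 13168.3 and then 5032.1, 5541.8 and 5847.5 on its brightest probe set (-1.36, adjusted p = 0.497). Over age that probe set rose in EOM, from a geometric mean of 324 at day 0 to 14000 at day 28. Another Igf2 probe set fell in EOM, from a mean log2 of 12.29 at day 0 to 7.02 at day 45. The 5 probe sets of Igf2 disagreed on the difference, from -2.06 to 0.59. In the cell cycle list, 1 of 23 was higher (Ccne1, 0.88) and 2 were lower (Cdkn1a and Ccnd3, -0.45) at an unadjusted p under 0.05. Over all 3939 genes those counts were 236 and 139, and 0 of the 23 passed the adjusted test.

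Of the 27 gene lists, 24 had no member past the threshold in EOM. The other 3 were those holding Col2a1 and Cnn1. Of all 3939 genes, 4 were higher and 2 lower past that threshold, so a list with no such member does not stand out. The lists of fibre genes had medians near 0: -0.07 for 20 fast fibre genes, -0.1 for 12 slow fibre genes, -0.18 for 12 developmental isoforms, -0.07 for 8 myosin heavy chains, -0.07 for 13 genes of the insulin-like growth factor axis and 0.14 for 26 pump and channel genes. Metabolic lists were alike, at -0.03 for 28 glycolytic genes, -0.07 for 42 genes of oxidative phosphorylation and the citrate cycle, and 0.03 for 32 fatty acid genes. Several of these medians moved without day 45 array 3, when that over all genes went from 0.09 to 0.2. The fast fibre median was then -0.4, that of oxidative phosphorylation and the citrate cycle -0.37, that of fatty acid genes 0.17, of glycolytic genes -0.07, of the growth factor axis -0.02 and of immediate early genes 0.13. Ribosomal protein genes had a median of -0.12, which was -0.3 without day 45 array 3. At an unadjusted p under 0.05, 3 of the 41 were lower and 0 higher, beside 139 and 236 of all 3939 genes. Proteasome genes had a median of 0.09, heat shock genes 0.05, immediate early genes -0.05 and 9 clock genes 0.39. Among 27 antioxidant genes, with a median of 0.26, the microsomal transferase Mgst1 read 1253.9, 1911.4 and 2635.1 and then 7137.7, 6507.0 and 2419.6 (1.38, adjusted p = 0.44). The heme oxygenase Hmox1 (0.59, adjusted p = 0.345) and the quinone reductase Nqo1 (0.89, 0.309) were also highest on day 45 arrays 1 and 2.

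The number of calls moved most with day 45 array 3. Without it 152 probe sets passed, 93 higher and 59 lower, and 12 of the 13 first called were among them. Array 3 did not exceed the highest day 28 array in 65 of the 93, and was not under the lowest in 35 of the 59. The following genes were picked from the 152 after their values were seen. Leaving out array 3 in part selects for genes on which it disagrees, so their pattern is a description. Ptgds, the prostaglandin D synthase of tear and cerebrospinal fluid, read 541.7, 937.1 and 752.9 at day 28 and 6146.4, 4545.8 and 537.6 at day 45. Elovl5, a fatty acid elongase, read 4080.6, 8177.5 and 4543.2 and then 17035.9, 21392.9 and 3786.8. Acly, which makes acetyl-CoA for lipid synthesis, read 3729.8, 6038.6 and 4350.4 and then 10861.9, 12622.5 and 3924.6.

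St6gal1, a sialyltransferase of secreted glycoproteins, read 2740.5, 2884.0 and 2042.3 and then 7043.1, 6983.5 and 1755.7. Fabp5, an epithelial fatty acid binding protein, read 2449.9, 3363.1 and 2568.3 and then 8344.7, 8758.7 and 2168.3. In each of these 5 genes day 45 arrays 1 and 2 were above every day 28 array, and array 3 was below the day 28 maximum. Some bright probe sets ran the other way, and 2 are given as examples. COX3, a mitochondrially encoded subunit of cytochrome oxidase, read 17588.9, 7473.4 and 23804.6 and then 630.6, 730.1 and 42168.4. Acta1, skeletal muscle actin, read 8164.2, 1776.2 and 13107.5 and then 606.8, 663.2 and 19581.0. Arrays 1 and 2 of day 45 were the lowest of the 6 for both genes and array 3 was the highest. On arrays 1 and 2 these readings lay close to those of Ckm, 606.6 and 727.4, and whether such low values of bright probe sets are failed estimates was not tested, so no fold is given. Among other bright muscle genes, Myh13, Myh4 and Des shared that order. On day 45 array 3 they read 35126.2, 31853.0 and 17493.3. Myh2 and Myh8 did not share it: Myh2 was lowest on array 3, at 13347.3, and Myh8 was highest on array 1, at 10816.5.

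**Figure D5:**
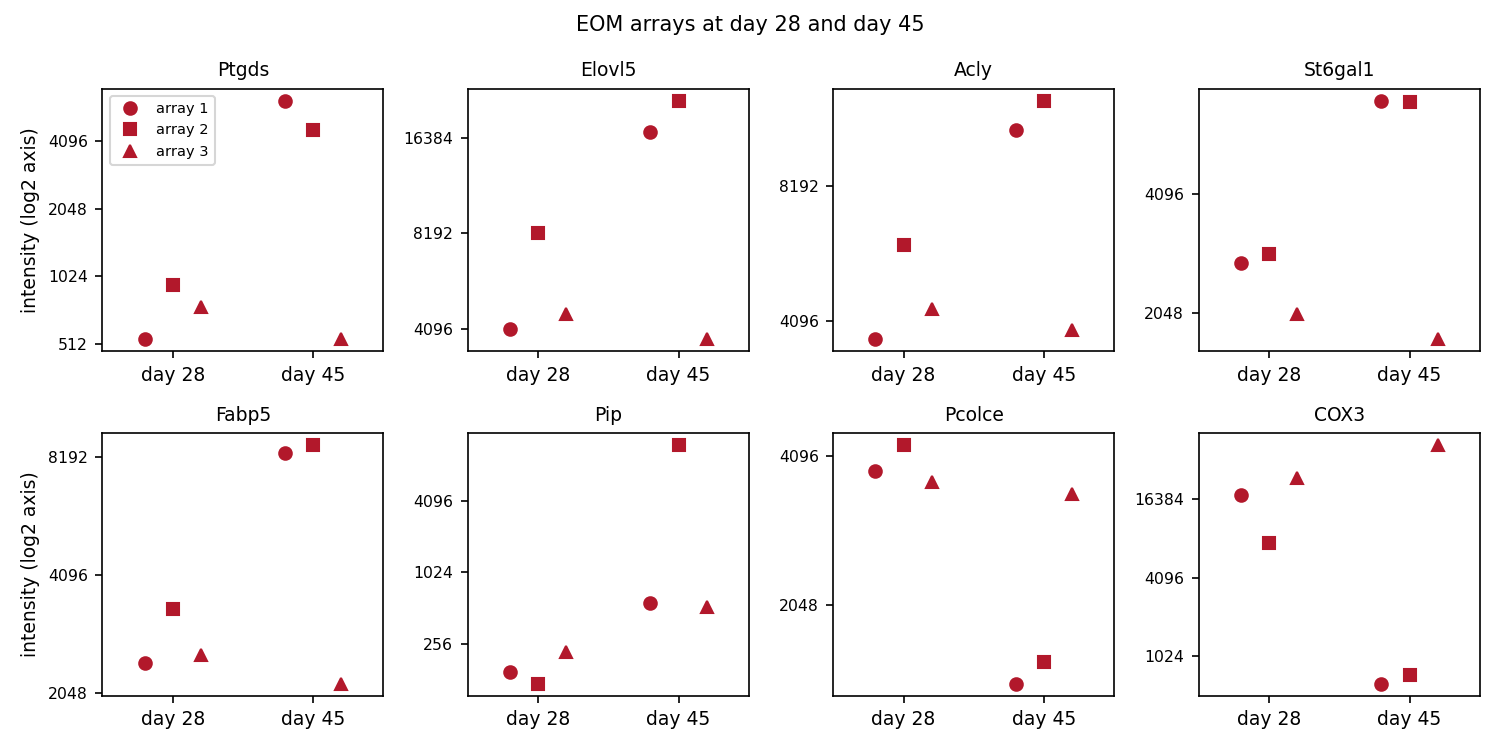
Intensity on a log2 axis of 8 genes on each EOM array at day 28 and day 45 (circle, square and triangle for arrays 1, 2 and 3). Ptgds, Elovl5, Acly, St6gal1 and Fabp5 are high on day 45 arrays 1 and 2, Pip on array 2, and Pcolce and COX3 are low on arrays 1 and 2.

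The marker lists are given by array, since their order over the day 45 arrays differed between lists. Of 17 lacrimal, Harderian and epithelial genes, 0 passed by limma. At an unadjusted p under 0.05, 4 were higher and 0 lower, beside 236 and 139 of all 3939 genes. In 3 all day 45 arrays lay above, beside 7.36% of all genes, and the list median was 0.54, against 0.09 over all genes. Their summed intensity was 8040 to 8480 at day 28 and 12434, 24476 and 9015 on day 45 arrays 1, 2 and 3. Pip alone made up 11987.2 on array 2, and without it the 3 sums were 11866, 12489 and 8493, against 7892 to 8261 at day 28. Over the younger EOM ages the sum ran as high as 48796 at day 0 and 23930 at day 21, and as low as 6971 at day 14. On the leg arrays of days 28 and 45 it lay between 9936 and 13260. Epcam, an epithelial adhesion protein, read 126.8, 310.1 and 212.1 and then 850.3, 866.9 and 271.0 (1.53, adjusted p = 0.248). The keratin Krt19 had 1.42 (0.275), and the gland water channel Aqp5 had 0.79 (0.45). Without day 45 array 3, 2 of the 17 passed, both higher, beside 43 higher and 28 lower of all 3939 genes.

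The 15 adipocyte markers had a median of 0.29 and a summed intensity of 37944 to 50974 at day 28 and 59237, 62691 and 39414 at day 45. Acly, also on that list, had a difference of 0.82 (adjusted p = 0.248) and Dgat1, of triglyceride synthesis, 0.6 (0.271). Lep, the adipocyte hormone, had -0.05 and Fabp4 0.29. The summed erythroid markers went the other way by array, at 27345 to 52688 at day 28 and 15011, 32575 and 73474 at day 45. A sum follows its brightest members, and not every member shared that order. Alas2 read 4262.2, 2052.0 and 2507.9 on day 45 arrays 1, 2 and 3. Of the 10 members, 2 had a positive and 8 a negative difference, with a median of -0.22. The 9 eye markers summed to 7616 to 9661 and then 10136, 11070 and 9272, with a median of 0.18, or 0.29 without day 45 array 3. The rise was not particular to EOM. In leg the same list summed to 5478 to 5719 at day 28 and 8631 to 10375 at day 45, with a median of 0.54. Leukocyte markers (median 0.19), Schwann cell and axon markers (0.03) and cartilage, bone and tendon markers (0.16) had sums whose ranges overlapped between the ages. The part of gland, fat or blood RNA in the differences of this interval was not tested, and the labels do not describe how the tissue was dissected.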

How the data were processed

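Values were used as deposited: the authors summarised each probe set to 1 intensity on each array and scaled the arrays, with software the labels do not name. Groups, ages and replicate numbers came from the sample titles. Intensities were floored at 100 and turned to log2. Of 8799 probe sets, 59 controls were left out, and 6783 exceeded 300 on at least 3 of the 36 arrays and were tested. In the platform annotation of 2016, 7006 probe sets carried 1 symbol, 308 carried several and 1426 are unnamed here; 6985 were matched by gene identifier and 0 symbols were updated. Differences that involve the floor or the top of the scale can be understated.

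The 12 group means were fitted over 36 arrays with limma 3.58.1 (R 4.3.3), with a trended prior, 24 residual and 5.88 prior degrees of freedom, and Benjamini-Hochberg adjustment at 0.05 over all probe sets tested. EOM day 45 was compared with day 28, leg likewise, and the EOM change with the leg change. The script was tested on simulated data. Lists are described by counts and medians over 1 probe set a gene, the brightest over all arrays. Named genes were up to 12 each way past the threshold with arrays that did not overlap, filled to 8 by the smallest p. They also include up to 8 each way of the difference of the changes, filled to 4, up to 4 a list, and the myosins and receptor subunits followed throughout. The comparison, the lists and the rules were chosen with earlier results of these data known. Figures used matplotlib 3.10.9 in python 3.11.15.

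Replicate numbers were not used to pair the arrays in the main fit. Between EOM day 28 and day 45, same-numbered arrays deviated from their group means with correlations of -0.213, 0.098 and 0.247. Those of arrays with different numbers ran from -0.285 to 0.235. For arrays numbered 3 the correlation was also positive between the leg ages (0.151) and between the muscles at day 28 (0.253) and day 45 (0.097). Whether the numbers mark a shared batch was not tested. Alternatives covered the floor, the filter, the scaling, the prior, the arrays in the fit, a replicate block, the brightest probe sets and each array left out.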

Additional observations from a re-analysis of the deposited data

Results flagged for a closer look

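The change from day 28 to day 45 differed between EOM and leg past the threshold of the limma test of that difference for 3 probe sets, all higher in EOM. The differences between the changes were 3.4 ± 0.53 for Acta2, 2.83 ± 0.53 for Sqle and 2.25 ± 0.33 for Myl9 on the log2 scale. In EOM none of these probe sets passed by itself, and in leg all 3 fell. For Sqle 2 leg arrays of day 45 lay at the floor, so its difference is a lower bound.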

How the results depend on the processing

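The number of probe sets past the threshold, 13 in EOM, was 11 to 16 with other floors, other filters, no trend in the prior or without the brightest probe sets. It was 33 with arrays scaled to the same median, where the median difference over all probe sets was -0.08 in place of 0.08, and 30 after quantile normalization; the cause was not tested. Leaving out 1 array gave 2 to 152 in EOM, 59 to 147 in leg and 2 to 15 for the difference of the changes. Scaling to the same median gave 5 for that difference.

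With the replicate block over all arrays the counts were 33 in EOM, including the 13, 179 in leg against 133, and 5 for the difference of the changes, including the 3. A limma fit of only the arrays compared, with fewer residual degrees of freedom, called 1 probe set in EOM (Ptprs, -3.51, not among the 13), 0 in leg and 0 for the difference, with 416, 723 and 295 at an unadjusted p under 0.05. With the replicate block added to that fit all 3 counts were 0, with 481, 696 and 350 unadjusted. All calls thus rest on the spread pooled over the 12 groups. No value of a gene named from the EOM comparison that had passed, nor of the 3 probe sets of the difference, changed sign under the alternatives run. Intensities near 100 and in the brightest 5% limit the size of measured differences.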
